A study of Mus musculus with 6 samples.

Results

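Potassium channel genes were described in 2 sorted populations of mouse stromal cells, wound cells with a high signal of a smooth muscle actin reporter and dermal cells with a low signal. The genes are the entries of the authors' gene table whose gene identifier belongs to a mouse symbol starting with Kcn, without the noncoding Kcnq1ot1. This gave 70 genes of 19267 in that table, and 51 of the 70 were tested among 16745 genes. RNA was measured on 6 1-colour Agilent arrays. The wound group, titled wound SMA+++ and labelled myofibroblast, held cells from wounds 7 days post injury on 3 arrays. The skin group, titled skin SMA+ and labelled fibroblast-like cells, held cells from dermis on 3 arrays. Both groups came from SMA-GFP transgenic mice, in which the smooth muscle actin promoter drives GFP, and both were sorted for lack of the blood cell protein CD45 and of the endothelial protein CD31. The labels give no strain, age or number of animals and do not say whether animals were pooled or whether each replicate was a different animal. The p-values therefore reflect the scatter of these 6 samples alone, part or all of which may be technical. Reporter level and injury differ together between the groups and cannot be told apart. Array design 026655 carried replicates 1 and 2 of both groups. The remaining array of each group was on design 028005 and is called replicate 3 only as a name.

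Potassium channels let potassium leave the cell and so hold the membrane voltage negative, which in contractile cells limits calcium entry. Voltage-gated channels open when the membrane depolarizes, inward rectifiers and 2-pore domain channels carry current near the resting voltage, and calcium-activated channels respond to a rise in cell calcium. Silent modifiers form no channel alone but join voltage-gated pores, and auxiliary subunits change where pores go and how they open. In vessel walls, the large-conductance calcium-activated channel, the ATP-sensitive channel and voltage-gated channels are known to relax smooth muscle.

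Between 64.4% and 71.1% of spots were well above background on the wound arrays, against between 65.2% and 72.6% on the skin arrays. No spot was saturated. Across genes, arrays of the same group correlated at 0.970 to 0.989 and arrays of different groups at 0.901 to 0.923. Acta2, the gene of smooth muscle actin, had a 26.1-fold higher signal in wound cells (log2 4.71, SE 0.16, limma adjusted p = 5.24e-05), which checks the labels and is no separate finding. Levels below are log2 signals minus the 75th percentile of the array, and differences are wound minus skin on that log2 scale from a limma fit with a term for the array design. A gene was called at a Benjamini-Hochberg adjusted p under 0.05 over all genes tested. Some called genes are given with a lower bound (at least so many fold), because no array of 1 group was well above background. Such genes passed the filter on dim signals only through the brighter group. A bound depends on the dimmest signals well above background on each array and is not a strict limit. The adjusted p beside a bound is that of the limma fit on the dim signals and does not test the bound. A level is that of 1 probe and is not compared between genes. In sorted populations, fewer cells expressing a gene and less RNA per cell cannot be told apart.

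Of the 70 potassium channel genes, 38 were detected, meaning that a probe was well above background, on all 6 arrays, 28 on some arrays and 4 on none (Kcnj5, Kcns2, Kcnq3 and Kcnq5). Wound replicates 1, 2 and 3 detected 54, 50 and 57 of the genes, against 47, 41 and 58 on skin replicates 1, 2 and 3. The order of the groups was thus not the same on both designs, with more genes detected in wound than in skin cells on design 026655 and 1 fewer on design 028005. Detection on all 3 wound arrays and on no skin array was seen for 5 genes, among them Kcnd2, Kcnh2, Kcns1 and Kcnk1. The opposite pattern was seen for 0 genes. The shares of all genes with these patterns were not counted, so the counts are no result about potassium channels as a set.

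**Figure D1:**
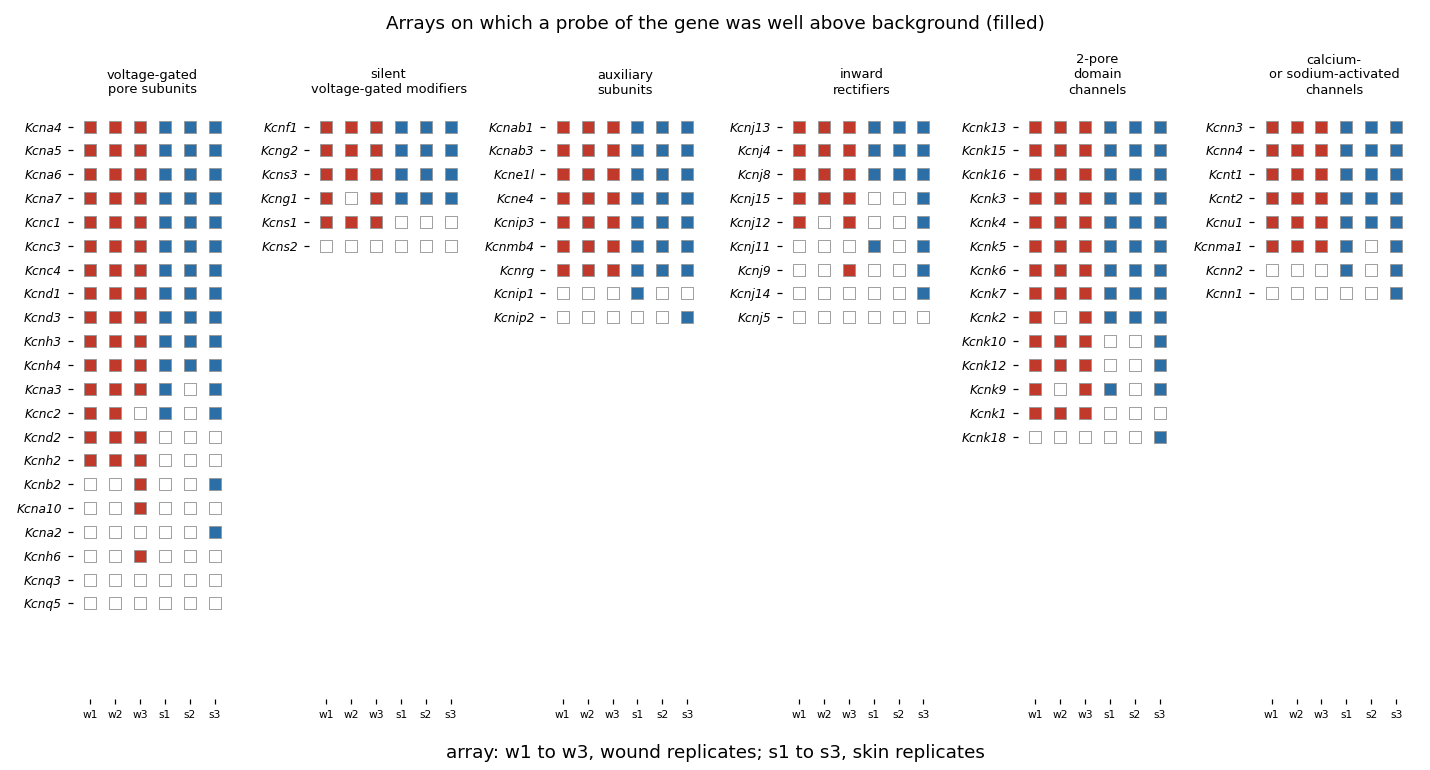
Each square is 1 array (w1 to w3, wound replicates; s1 to s3, skin replicates) and each line of squares 1 of 67 potassium channel genes, sorted by class; a filled square means that a probe of the gene was well above background. Genes filled on all 6 arrays number 37, and 4 are filled on the 3 wound arrays only.

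Of the 51 tested genes, 19 were called (37.3%), against 34.0% of all 16745 tested genes, a share near the background. In wound cells 15 were higher (29.4%, against 18.5% of all genes) and 4 lower (7.84%, against 15.6%). At 2-fold or more, 14 rose, against 10.2% of all genes, and 2 fell, against 10.0%. Of the 19 called genes, 12 were not measured by 1 probe on all 6 arrays. Among these, Kcng2 passed the filter on dim signals with a different probe in each group, and the others passed through 1 group. Of the 37 genes measured by 1 probe on all 6 arrays, 5 rose and 2 fell (18.9% called, against 31.5% of 15014 such genes, of which 17.7% rose and 13.8% fell). The median difference of the 51 genes was 0.30, against 0.04 over all tested genes.

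Of 14 2-pore domain channels, 12 were tested, 4 rose, 1 fell and 7 were not called (median log2 0.15). Of 9 inward rectifiers, 4 were tested, 2 rose and 2 did not pass (median 0.92). Of 9 auxiliary subunits, 7 were tested, 3 rose and 4 did not pass (median 0.30). The median of every class, here and below, covers only the genes that passed the filter on dim signals. A gene that passed through its wound arrays alone was picked in part for being brighter there. Of 24 voltage-gated pore subunits, 17 were tested, 4 rose and 13 did not pass (median 0.40). The 4 that rose passed the filter only through their wound arrays. Of the 12 pore subunits measured by 1 probe on all 6 arrays, 0 were called. Of 6 silent modifiers, 5 were tested, 1 rose, 2 fell and 2 did not pass (median -0.48). Of 8 calcium- or sodium-activated channel genes, 6 were tested, 1 rose, 1 fell and 4 did not pass (median -0.08). With 4 to 17 tested genes a class, the classes were not tested against each other.

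**Figure D2:**
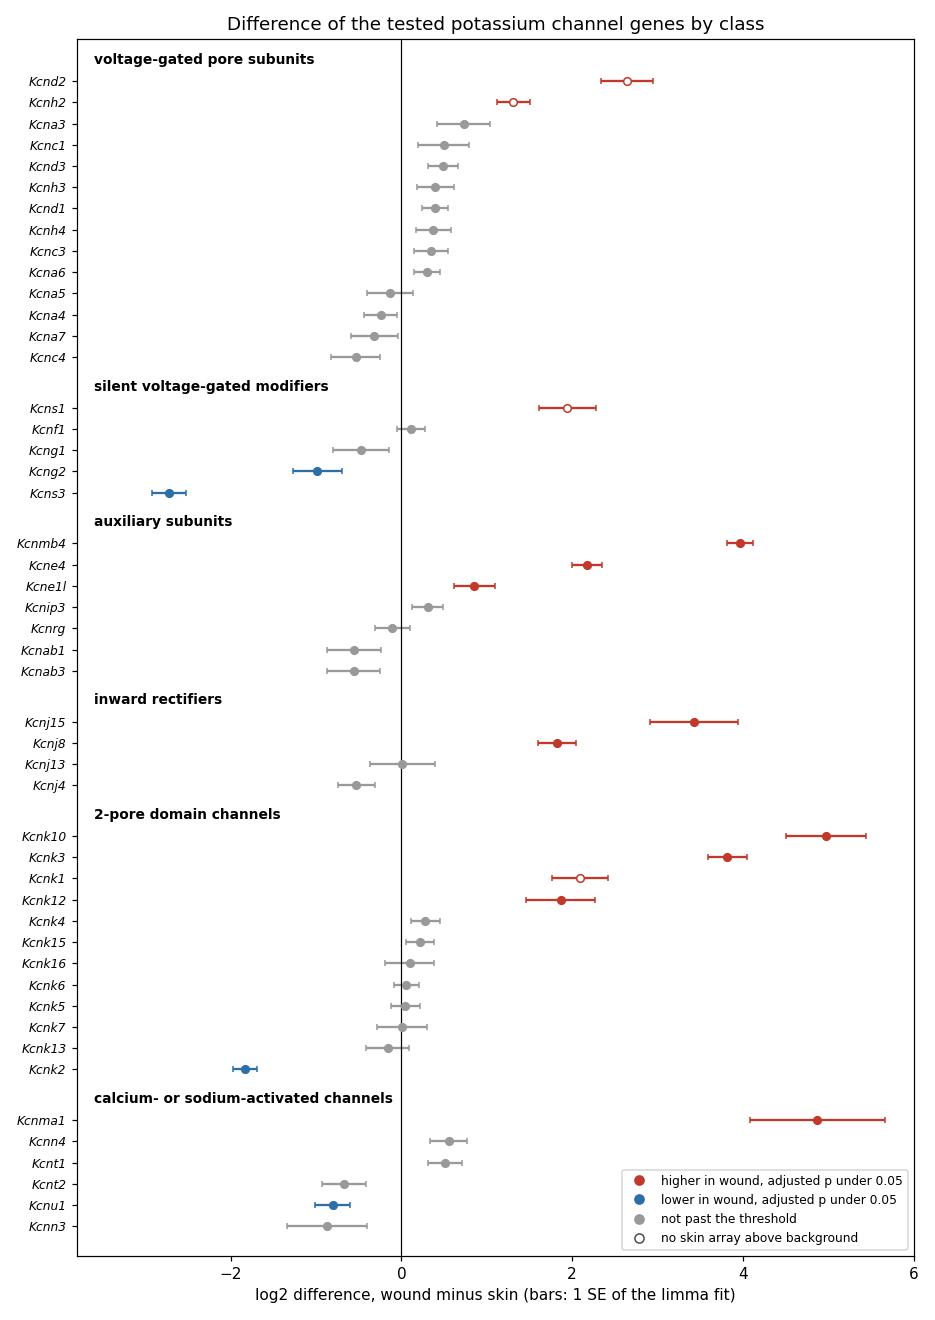
Log2 difference of 48 tested potassium channel genes, wound minus skin, with bars of 1 SE of the limma fit on 3 arrays per group; red points rose, blue points fell, grey points did not pass an adjusted p under 0.05, and open points were not well above background on any skin array. Kcnk10, Kcnma1, Kcnmb4 and Kcnk3 stand farthest to the right, in an order that differs under normexp, and Kcns3 farthest to the left.

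The pore subunit of the large-conductance calcium-activated (BK) channel and its beta subunit Kcnmb4 were higher in wound cells. Kcnma1, the pore, stood at -0.95, -0.81 and 0.18 on wound replicates 1, 2 and 3, against -4.53, -7.75 and -3.91 on skin replicates 1, 2 and 3. The groups did not overlap, and skin replicate 2, where no probe was well above background, was far below the other skin arrays. Kcnma1 rose 29.3-fold (log2 4.87, SE 0.79, adjusted p = 0.0048), and the log2 difference was 3.84 without skin replicate 2, 5.68 without skin replicate 1 and 2.55 with normexp background correction, which adds an offset that draws dim signals together. Its 3 probes were well above background on all wound arrays, but on 0, 1 and 2 skin arrays, so their differences against skin rest in part on background signal. The brightest probe differed between the array designs. Kcnmb4, a beta subunit best known from brain that slows opening of the channel, stood at -0.02, 0.16 and 1.46 on wound replicates 1, 2 and 3, against -4.04, -3.91 and -2.35 on the skin replicates. It was detected on all arrays, the groups did not overlap, and it rose 15.6-fold (log2 3.97, SE 0.15, adjusted p = 6.53e-05), or by 2.86 with normexp. Its other probe, also well above background on all arrays, gave a mean difference of 2.15.

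Kcnmb1, the beta subunit of smooth muscle, is not in the authors' gene table and so is not among the 70 genes. Its probe, named through its accession, stood at -2.20, -2.67 and -1.20 on wound replicates 1, 2 and 3, against -7.85, -7.38 and -6.44 on skin replicates 1, 2 and 3. It was well above background on all wound arrays and no skin array, and was higher by at least 12.7-fold in wound cells (adjusted p = 6.54e-05). With normexp, which draws dim signals together, its log2 difference was 1.57, a smaller change than that bound. The beta subunits Kcnmb2 and Kcnmb3, also outside the 70 genes, were detected on 0 arrays. Kcnu1, a relative of the BK pore known from sperm, fell (log2 -0.81, SE 0.21, adjusted p = 0.0271) and lost its call in 5 of the 6 fits that left out an array. The small- and intermediate-conductance channels Kcnn3 and Kcnn4, which open through calmodulin, and the sodium-activated Kcnt1 and Kcnt2 were detected on every array. Their differences lay between -0.87 and 0.56 and none passed the threshold. Kcnn1 and Kcnn2 were not tested, with a probe well above background on 1 and 2 skin arrays and on 0 wound arrays.

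The sequences before the starts of Kcnma1 and Kcnmb4 are shown because both genes rose. They are RefSeq sequences of build GRCm38.p6, 250 bases ending just before the annotated start, read on the strand of the gene. Capitals mark GGGCGG, the GC box bound by Sp1-type factors, on either strand (CCGCCC on the other).
Kcnma1 (chr14:24004206-24004455, minus strand): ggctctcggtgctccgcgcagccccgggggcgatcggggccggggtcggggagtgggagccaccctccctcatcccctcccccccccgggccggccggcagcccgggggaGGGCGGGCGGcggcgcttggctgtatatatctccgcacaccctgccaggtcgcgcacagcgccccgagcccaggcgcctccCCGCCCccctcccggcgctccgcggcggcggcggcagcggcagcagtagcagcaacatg
Kcnmb4 (chr10:116473524-116473773, minus strand): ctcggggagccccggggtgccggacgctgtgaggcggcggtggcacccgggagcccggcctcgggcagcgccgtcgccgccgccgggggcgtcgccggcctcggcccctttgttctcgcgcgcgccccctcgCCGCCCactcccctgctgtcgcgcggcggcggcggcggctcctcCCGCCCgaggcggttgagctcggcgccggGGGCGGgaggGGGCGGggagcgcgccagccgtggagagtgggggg
Both windows are rich in G and C, with 79.2% and 83.6% of bases against a median of 52.4% over 32851 RefSeq promoter windows. Kcnma1 has 3 GC boxes, of which 2 overlap, and Kcnmb4 has 4, and 32.7% of all windows hold at least 1. Neither holds a CArG box, the element bound by serum response factor, nor TATAAA or its complement TTTATA. Those motifs are in 1.47% and 12.4% of all windows. A match is a description of the letters and not a measured site.

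Among 2-pore domain channels, 2 relatives that respond to membrane stretch went in opposite directions. Each of them passed the filter on dim signals only through the group where its signal was higher. Kcnk10, also called TREK-2, stood at -1.23, -0.54 and -0.63 on wound replicates 1, 2 and 3, against -5.69, -7.03 and -4.60 on skin replicates 1, 2 and 3. The groups were far apart, and only skin replicate 3 had the probe well above background. The gene rose 31.3-fold (log2 4.97, SE 0.47, adjusted p = 0.000577), or by 2.27 with normexp. Kcnk2, also called TREK-1, stood at -5.70, -5.62 and -3.97 on the wound replicates, against -3.72, -3.84 and -2.22 on the skin replicates. The groups did not overlap, though wound replicate 3 on design 028005 came close to the skin values of design 026655. Kcnk2 was lower in wound cells by 3.57-fold (log2 -1.84, SE 0.14, adjusted p = 0.000299), or -0.69 with normexp, and was detected on 2 of 3 wound arrays.

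The windows before the most upstream RefSeq starts of these relatives are shown because their genes differed in opposite directions. Capitals mark GGAATG or its complement CATTCC, the core of the element bound by TEAD factors, and the GC box in either form.
Kcnk10 (chr12:98578214-98578463, minus strand): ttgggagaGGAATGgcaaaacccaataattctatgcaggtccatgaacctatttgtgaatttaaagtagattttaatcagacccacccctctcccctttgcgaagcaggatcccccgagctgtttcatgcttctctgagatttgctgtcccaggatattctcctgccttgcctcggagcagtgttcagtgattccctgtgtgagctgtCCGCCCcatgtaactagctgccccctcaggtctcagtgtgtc
Kcnk2 (chr1:189402274-189402523, minus strand): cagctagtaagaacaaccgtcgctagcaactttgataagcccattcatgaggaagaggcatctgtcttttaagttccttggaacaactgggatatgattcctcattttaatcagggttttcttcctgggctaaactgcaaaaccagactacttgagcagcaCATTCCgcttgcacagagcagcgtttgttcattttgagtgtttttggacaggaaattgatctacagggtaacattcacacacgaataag
Each window holds 1 copy of the GGAATG element, which is in 12.6% of all windows, and Kcnk10 alone of the pair holds 1 GC box. Their shares of G and C were 50.0% and 42.4%, below those of the BK subunits. RefSeq lists 2 starts for Kcnk10 and 4 for Kcnk2, and the arrays do not tell which was used. Of the 19 called genes, 14 had a promoter window in the table, of which 9 held a GC box, 7 the GGAATG element, 0 a CArG box and 0 TATAAA. Over all windows the shares, in the same order, were 32.7%, 12.6%, 1.47% and 12.4%. Those shares count every listed start, whereas the called genes count with their most upstream window only. The counts and shares were not tested against each other.

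Kcnk3, the acid-sensitive channel TASK-1, rose with little spread. It stood at -1.09, -1.34 and 0.20 on wound replicates 1, 2 and 3, against -4.99, -4.56 and -4.14 on skin replicates 1, 2 and 3. The probe was well above background on all arrays and the groups did not overlap, with a 14.1-fold difference (log2 3.82, SE 0.23, adjusted p = 0.000136) or 2.17 with normexp. Kcnk1, known as TWIK-1, had values of -4.59, -4.76 and -4.14 on the wound replicates, against -7.23, -7.36 and -5.18 on the skin replicates, none of which was above background. It was higher by at least 2.11-fold in wound cells (adjusted p = 0.00440). Kcnk12 (THIK-2), of a small family named after its halothane-inhibited member, stood at -4.55, -4.51 and -2.93 on the wound replicates, against -5.93, -7.42 and -4.23 on the skin replicates. These ranges overlapped, though wound exceeded skin within each design, and only skin replicate 3 measured the gene. Its log2 difference was 1.86 (SE 0.40, adjusted p = 0.0148), the call was lost without wound replicate 1 or wound replicate 2, and without skin replicate 2 the value was 1.36. With normexp neither Kcnk1 nor Kcnk12 passed the threshold (log2 0.36 and 0.42), and the value of Kcnk1 was a smaller change than its bound.

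The other 7 tested 2-pore domain channels were detected on all arrays and differed by between -0.16 and 0.28, and none passed the threshold. Among them were Kcnk6, known as TWIK-2, and Kcnk5, an alkaline-activated channel. Kcnk9 was detected on 2 arrays of each group and Kcnk18 on 1 skin array, and neither was tested.

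**Figure D3:**
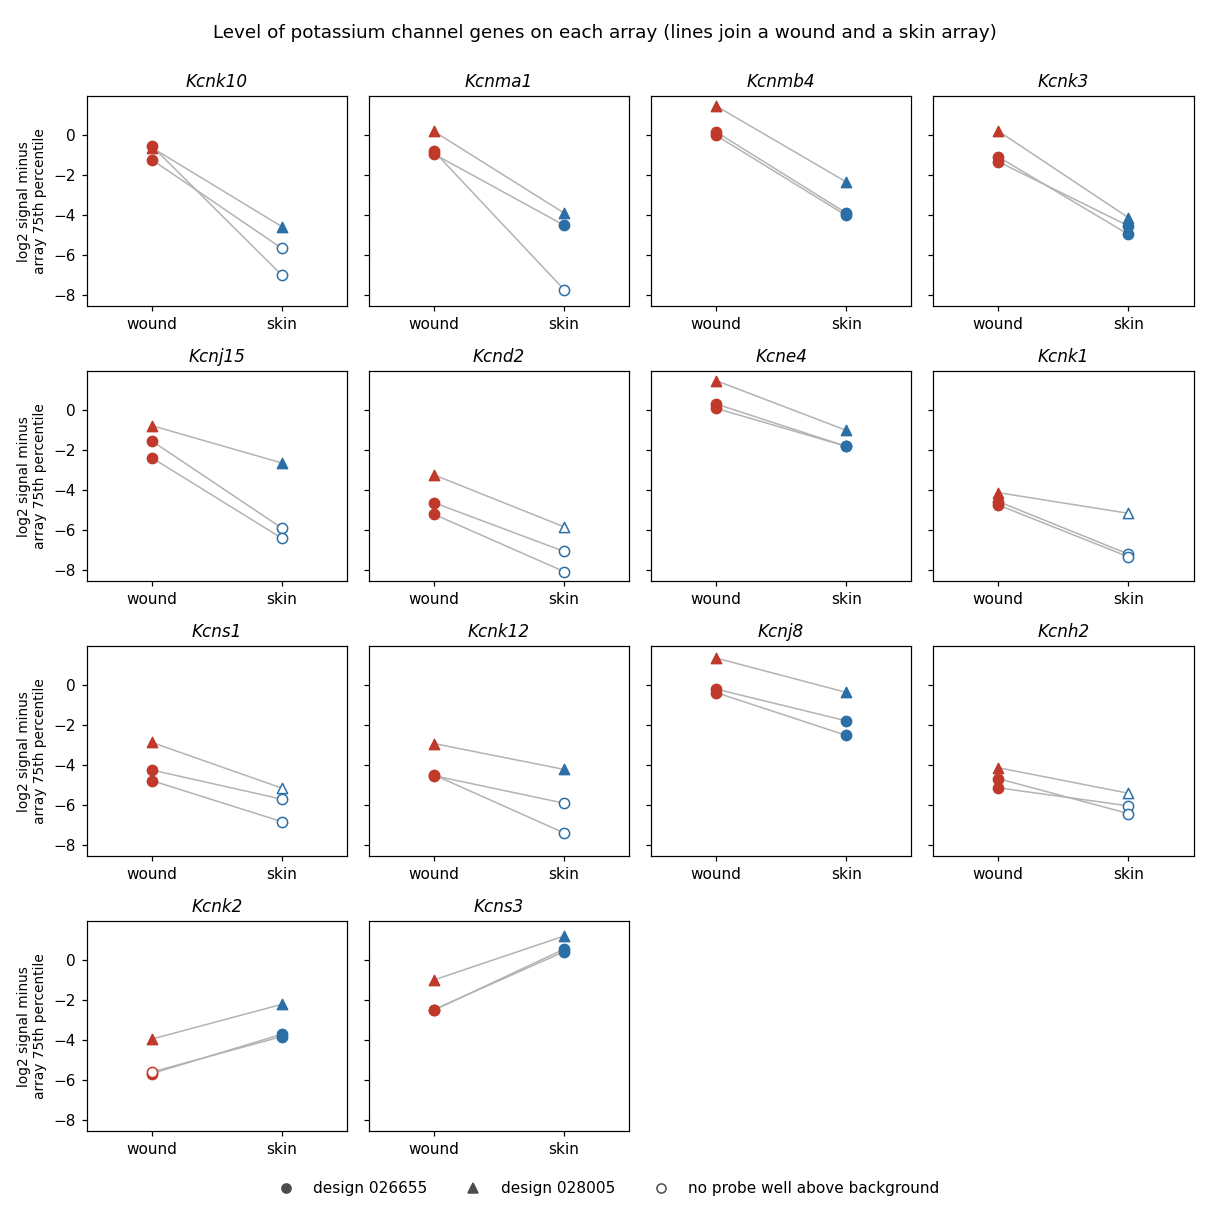
Level of 14 potassium channel genes called with a difference of at least 2-fold on each array, as log2 signal minus the array's 75th percentile; wound arrays are red, skin arrays blue, circles are design 026655, triangles design 028005, open symbols had no probe well above background, and grey lines join arrays of the same replicate number. In 12 panels the lines fall from wound to skin, and in those of Kcnk2 and Kcns3 they rise.

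Among inward rectifiers, Kcnj8, the pore of the ATP-sensitive channel of vessels (Kir6.1), rose in wound cells. It stood at -0.20, -0.38 and 1.35 on wound replicates 1, 2 and 3, against -1.80, -2.52 and -0.37 on skin replicates 1, 2 and 3. Every array detected it, wound exceeded skin within each design, and skin replicate 3 reached the level of the wound arrays on the other design. The difference was 3.53-fold (log2 1.82, SE 0.22, adjusted p = 0.00150), or 1.47 with normexp. Abcc9, the sulfonylurea receptor that joins this pore, stood at 2.23, 2.67 and 3.51 on the wound replicates, against -0.63, -1.21 and 1.01 on the skin replicates. Its groups did not overlap. It rose 8.47-fold (log2 3.08, SE 0.27, adjusted p = 0.000459), whereas Abcc8, the receptor of the pancreatic channel, did not pass the threshold. Kcnj11, the pancreatic pore, was detected on 2 skin arrays and 0 wound arrays and was not tested.

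Kcnj15 (Kir4.2), an inward rectifier of kidney and other epithelia, stood at -1.55, -2.39 and -0.78 on wound replicates 1, 2 and 3, against -5.92, -6.43 and -2.66 on skin replicates 1, 2 and 3. Only skin replicate 3 measured it in skin cells. The groups did not overlap, and the difference was 1.88 in the pair on design 028005 against 4.37 and 4.04 in the pairs on design 026655. The fit gave a 10.8-fold rise (log2 3.43, SE 0.51, adjusted p = 0.00351), 4.21 without wound replicate 3 and likewise without skin replicate 3, and 1.55 with normexp. Its dimmer probe was well above background on 0 arrays. Kcnj4 and Kcnj13 were detected on all arrays with differences of between -0.53 and 0.01, and did not pass the threshold. Also not tested were Kcnj5, detected on 0 arrays, Kcnj9 on 1 array of each group, Kcnj12 on 2 wound arrays and 1 skin array, and Kcnj14 on 1 skin array. Kcnj1, a channel of the kidney tubule outside the 70 genes, was higher by at least 2.64-fold in wound cells (adjusted p = 0.000466), with a log2 difference of 0.59 under normexp. That normexp value was a smaller change than the bound.

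The silent modifiers went both ways. Kcns3 (Kv9.3) stood at -2.49, -2.52 and -1.0 on wound replicates 1, 2 and 3, against 0.42, 0.55 and 1.20 on skin replicates 1, 2 and 3. The groups did not overlap and every array detected the gene, which was lower in wound cells by 6.60-fold (log2 -2.72, SE 0.20, adjusted p = 0.000266), or -2.16 with normexp. It was the largest decrease of the 51 tested genes. Kcns1 (Kv9.1) stood at -4.79, -4.26 and -2.88 on the wound replicates, against -6.85, -5.73 and -5.17 on the skin replicates, none of them above background. It was higher by at least 3.03-fold in wound cells (adjusted p = 0.00607), with a log2 difference of 0.52 under normexp, a smaller change than that bound. Kcng2 (Kv6.2) fell by 0.98 on the log2 scale (SE 0.28, adjusted p = 0.0494). Its spot on skin replicate 3 carried an outlier mark and was left out, so the fit had 5 arrays, and the call was lost under normexp and in 5 of the 6 fits that left out an array. Kcnf1 and Kcng1 did not pass the threshold, and Kcns2 was detected on 0 arrays and not tested.

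Among voltage-gated pores, Kcnd2 and Kcnh2 rose from signals that were not above background in skin cells. Kcnd2 (Kv4.2), a fast-inactivating pore, stood at -5.23, -4.64 and -3.25 on wound replicates 1, 2 and 3, against -8.10, -7.09 and -5.86 on skin replicates 1, 2 and 3. It was at least 2.49-fold higher (adjusted p = 0.00117). Kcnh2, the ERG channel that repolarizes the heart, stood at -5.15, -4.70 and -4.15 on the wound replicates, against -6.06, -6.45 and -5.43 on the skin replicates. It was at least 1.99-fold higher (adjusted p = 0.00334), and these groups, like those of Kcnd2, did not overlap. With normexp Kcnd2 remained called (log2 0.54), and Kcnh2 did not (log2 0.18). Both values were smaller changes than the bounds.

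Of the 17 tested voltage-gated pores, 13 did not pass the threshold. Their differences ran from -0.54 to 0.73. Among them were Kcna3, the channel of lymphocytes, and Kcna5 (Kv1.5), a pore of vascular smooth muscle. Not tested were 7 others. Kcna10 and Kcnh6 were detected on 1 wound array each, Kcna2 on 1 skin array, Kcnb2 on 1 array of each group, Kcnc2 on 2 arrays of each group, and Kcnq3 and Kcnq5 on 0 arrays. Kcna1, a pore of axons outside the 70 genes, had a lower signal in wound cells (log2 -2.98, SE 0.77, adjusted p = 0.0270), detected on 1 of 3 wound arrays, and its call was lost without any 1 of wound replicates 2 and 3 and skin replicates 2 and 3. Leaving out wound replicate 3 gave -2.07, and leaving out wound replicate 1 gave -3.92.

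Among auxiliary subunits of voltage-gated pores, Kcne4, a single-span protein that inhibits some voltage-gated pores, rose in wound cells. It stood at 0.30, 0.08 and 1.47 on wound replicates 1, 2 and 3, against -1.82, -1.82 and -1.02 on skin replicates 1, 2 and 3. All arrays detected it and the groups did not overlap, with a 4.51-fold difference (log2 2.17, SE 0.17, adjusted p = 0.000311) or 1.87 with normexp. Both of its probes gave nearly the same mean difference, 2.17 and 2.11. Kcne1l, its relative also called Kcne5, rose by 0.85 with its brightest probe (SE 0.24, adjusted p = 0.0373) and by 3.41 with the other, and lost its call in 4 of the 6 fits that left out an array. The cytoplasmic beta subunits Kcnab1 and Kcnab3, the calcium sensor Kcnip3 and Kcnrg did not pass the threshold, with differences between -0.56 and 0.30. Kcnip1 and Kcnip2 were detected on 1 skin array each and were not tested.

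**Figure D4:**
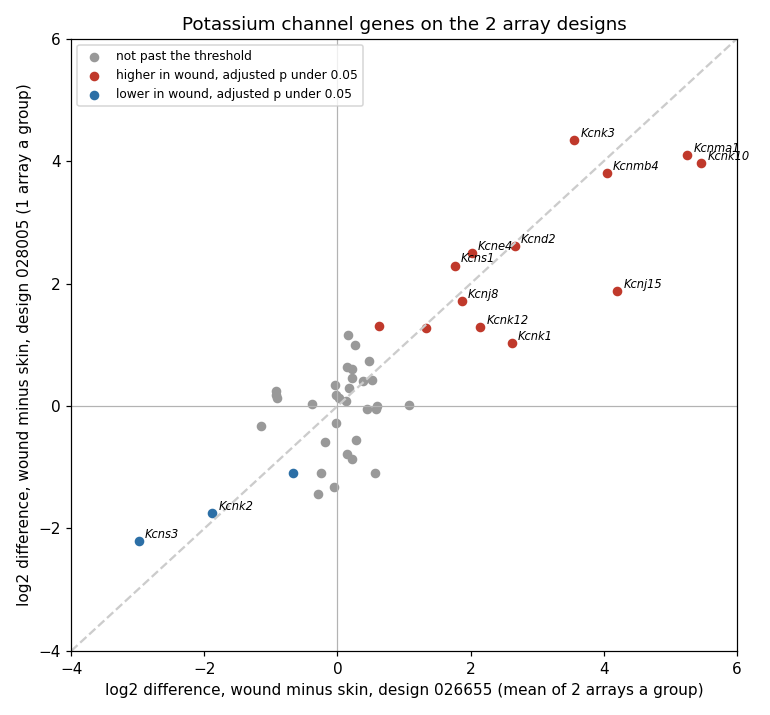
Log2 difference, wound minus skin, of tested potassium channel genes on design 028005 (vertical axis, 1 array per group) against design 026655 (horizontal axis, mean of 2 arrays per group), with a dashed line of equality; Kcng2 has no value on design 028005 and is left out. Called genes have the same sign on both designs, with Kcnj15 at 4.21 on design 026655 and 1.88 on design 028005.

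The 32 tested genes that did not pass the threshold had differences between -0.87 and 0.73, with standard errors between 0.14 and 0.47, and 23 of them differed by under 0.5 in size. On both designs the median difference over the tested potassium channel genes was small, 0.27 on design 026655 and 0.32 on design 028005. The called genes had 1 sign on both designs where both had a value, which is no separate support since both designs entered the fit.

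Markers of other cell types moved in the same arrays. Of 19 mural cell markers outside the 70 genes, the markers of pericytes and vessel smooth muscle, 13 rose, 1 fell and 5 were not called, with a median log2 difference of 3.08. Their summed linear signal, in units of each array's 75th percentile, was between 125 and 331 on wound arrays and between 66.1 and 138 on skin arrays. All of these markers were detected in at least 1 group, and the receptors Pdgfrb and Cspg4 did not pass the threshold. Kcnj8 and Abcc9 are themselves mural markers, and mural cells express the reporter's promoter. Their part in the rises of Kcnma1, Kcnmb4, Kcnk3, Kcnj8 and the other genes was not tested.

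Markers of other cells were higher in skin cells, the group with more Kcns3 and Kcnk2. Of 11 keratinocyte markers, 10 were lower in wound cells and 1 did not pass (median -4.33, summed signal between 4.39 and 10.6 on wound arrays and between 19.5 and 44.0 on skin arrays). Krt5, a basal keratin, was detected on all arrays, and Krt1 and Cdh1 were detected on 0 wound arrays. Of 9 tested Schwann cell and glial markers, 6 were lower and 3 did not pass (median -1.09, summed signal between 9.63 and 23.5 on wound arrays and between 31.0 and 74.9 on skin arrays). Cdh19 was detected on 0 wound arrays. Their part in the lower values of Kcns3, Kcnk2 and Kcna1 in wound cells was not tested.

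Other marker lists were split or moved less. Of 9 skeletal muscle markers 4 rose and 1 fell, with Myf5, Ckm and Myh1 detected on 0 arrays, and the list shares Des with the mural list. Of 7 endothelial markers 3 rose, of 7 neuronal markers 2 rose and 1 fell, and of 5 melanocyte markers 1 rose and 2 fell. Of 10 white blood cell markers 1 fell. The sort markers were still detected, Pecam1 on all 6 arrays (log2 0.37, adjusted p = 0.153) and Ptprc on 1 wound and 3 skin arrays (log2 -0.21, adjusted p = 0.367). Of 10 fibroblast markers 3 were lower in wound cells, Pdgfra among them (log2 -1.30, SE 0.15), and all 10 were detected on every array.

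Genes that share the work of setting potassium gradients and membrane voltage are given beside the channels. Of 11 tested partner proteins, 3 rose, among them Abcc9, 3 fell and 5 did not pass the threshold. Of 16 genes of the sodium pump and the cation-chloride cotransporters, 5 rose, 5 fell and 6 did not pass. The pump's beta chains Atp1b2 and Atp1b1 were 14.2-fold and 10.9-fold higher (adjusted p = 8.81e-05 and 0.000122). Fxyd3, a pump regulator of epithelia, was 6.86-fold lower. Of 30 calcium channel genes, 10 rose and 7 fell. The cation channels Trpc6, Piezo2 and Trpv2 rose by 3.86, 2.94 and 2.46 on the log2 scale, the calcium channel subunit Cacna2d3 was 31.8-fold lower and the release channel Ryr2 was at least 1.79-fold lower (adjusted p = 0.00434), a call lost with normexp (log2 -0.36). Of 19 chloride channel genes, 6 rose and 4 fell, with the calcium-activated Ano1 5.28-fold higher and Clic5 at least 10.4-fold lower (adjusted p = 8.38e-05), or log2 -1.54 with normexp. The normexp values of Ryr2 and Clic5 were smaller changes than their bounds. The 3 tested cyclic nucleotide-gated relatives did not pass the threshold of the limma fit.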

How the data were processed

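Per the series' design text, about 50 ng of RNA was amplified, labelled and hybridised to Agilent arrays. That text names a human array, while the file headers name mouse build mm9 and 1-colour scans. Per the file headers, Feature Extraction 10.7.3.1 made the deposited processed intensity values, and the authors made the deposited gene table with GeneSpring 14.5, per the design text. The authors' deposited values there state no scale and were taken as log2 because they followed the scanner values, with the 75th percentile of each column at 0. That table named the probes, with accessions for others. Levels are log2 of the processed intensity minus the array's 75th percentile. Controls and outlier-marked spots were dropped. The brightest probe per gene on each design was taken, and genes whose signal was well above background throughout 1 group or both were tested with limma 3.58.1 in R 4.3.3, with a term for the array design and Benjamini-Hochberg adjustment over 16745 genes. The fit had 3 residual degrees of freedom, and 6 arrays limit the precision. The scanner files held median spot signals, so the normexp alternative used those instead of means. A lower bound sets the mean of the brighter group against a floor for the other group. On each array the floor is the gene's own signal or the array's lowest signal well above background, whichever is higher. That lowest signal is of the dimmest such probe on the array and is no limit for the gene's own probe. Kcns1 and Kcnh2 exceeded it on skin replicate 3 without being well above background, so the bounds are not strict limits.

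Values by array are given for genes called with a difference of 2-fold or more or with a bound, other tested genes by range and genes not tested by arrays detected. Non-members of the transport lists were named when called with a log2 difference of at least 2 in size. Kcnu1, Kcng2, Kcne1l, the Kcn genes outside the table and single markers were singled out after their values were seen. The genes and lists were chosen with earlier results of these data known. The pipeline was tested on simulated data. Alternatives changed the normalization, background, filter, probe rule, design term, threshold and arrays used. Counts cover all 70 genes, and a few genes are not reported here by name, in the text or the figures.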

Additional observations from a re-analysis of the deposited data

How the results depend on the processing

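No called potassium channel or transport gene named here changed direction under any alternative. Some named genes that were not called did. Averaging a gene's probes moved Kcna5 from -0.14 to 0.73 and Kcng1 from -0.48 to 0.39 on the log2 scale. The median over all tested genes, 0.04, was -0.03 with the percentile over detected probes and -0.03 with the authors' deposited table. Genes called numbered 5698 in the fit reported, 1762 with no array design term, 3193 at an adjusted p under 0.01 and between 3760 and 5021 without 1 array, 3760 without skin replicate 1. These totals of separate fits need not hold the same genes. With the replicate number as a block, 5607 genes and 18 of the 19 potassium channel genes were called, with Kcng2 lost. The labels do not say that a number marks a shared animal or day, and the data leave pairing unsettled. Replicate 1 minus 2 correlated at 0.15 between wound and skin over 16667 genes. Wound replicates 1 and 3 correlated best with the skin array of their own number (0.911 and 0.923), and wound replicate 2 with skin replicate 1 (0.907). Potassium channel genes called numbered 13 with normexp, 15 with no design term, 18 with the mean of all probes or the authors' deposited table, 20 with quantile normalization and 13 at an adjusted p under 0.01. Over the genes detected on all arrays 7 were called, 5 higher and 2 lower. Without 1 array, 16 to 17 were called, 13 to 14 higher and 2 to 4 lower. The fits without wound replicate 3 and without skin replicate 3 equal that of design 026655 alone, since the design term takes up a lone array. Lower calls numbered 2, against 4, with no design term, normexp or an adjusted p under 0.01. Called 2-pore domain channels numbered 3 with normexp, 1 over genes detected on all arrays and 4 to 5 without 1 array. Called calcium- or sodium-activated channels numbered 1 with no design term, normexp, genes detected on all arrays, design 026655 alone or an adjusted p under 0.01, and 1 to 2 without 1 array. Called voltage-gated pores numbered 2 with normexp or an adjusted p under 0.01, 0 over genes detected on all arrays and 3 to 5 without 1 array. Over genes detected on all arrays, 1 inward rectifier and 1 silent modifier were called, and without 1 array 2 inward rectifiers, 2 to 3 silent modifiers and 2 to 3 auxiliary subunits. Apart from the alternatives that by construction use fewer genes, fewer samples or a stricter threshold, the cause of these changes was not tested. Among the Kcn genes named here, signal over background limits Kcnd2, Kcnh2, Kcnk1, Kcns1, Kcnmb1 and Kcnj1, which have only a bound. It also limits the differences of Kcnk10, Kcnj15 and Kcnk12, detected on 1 skin array each, and of Kcnma1, detected on 2 skin arrays.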
